A study of Arabidopsis thaliana with 8 samples.

Results

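AT5G66390, PAP20 and AT5G16230 are 3 Arabidopsis enzyme genes, chosen because their deposited values were higher by log2 6 or more in protoplasts with 35S:ORE1 than in WT protoplasts. Each is measured by 1 probe set, so the 3 probe sets described here are 3 of 22810 on the array, and the genes 3 of the 13333 that have a probe set listed with a single symbol and a known locus. AT5G66390 is also called peroxidase 72. The protoplast difference chose the genes and is given below as a description without a test, while the seedling comparison took no part in the choice and is tested.

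The study measured total RNA on 8 Affymetrix arrays (4 groups with 2 arrays apiece) to find genes that respond early to ORE1, a NAC transcription factor that promotes leaf senescence. Seedlings with estradiol were 2-week-old whole ORE1-IOE seedlings of Col-0 background, held for 2 h with 10 µM estradiol to induce ORE1, and seedlings with mock treatment were the same line and age after 2 h with 0.1% ethanol. Protoplasts with 35S:ORE1 were mesophyll cell protoplasts of 5-week-old Col-0 plants, 6 h into transient expression of ORE1 from the constitutive 35S promoter, and WT protoplasts came from the same tissue, ecotype and age. When WT protoplasts were harvested, and whether they were mock-transfected, is not given in the labels, so effects of transfection and of ORE1 cannot be told apart. All seedling arrays carry the inducible transgene, including those with mock treatment, so effects of estradiol itself and of induced ORE1 cannot be told apart. Nothing in the labels states that replicates came from separate plants or preparations, so the spread between them, and the p-values, may be technical.

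Class III peroxidases are secreted haem enzymes that use hydrogen peroxide to oxidise phenolic compounds, and the enzyme encoded by AT5G66390 is known for its part in lignin formation in Arabidopsis stems. Purple acid phosphatases are metal-containing enzymes that release phosphate from organic esters, and several of the family are known to be induced when phosphate is scarce or when leaves senesce. Acyl-ACP desaturases are soluble plastid enzymes that put a double bond into fatty acids while these are bound to acyl carrier protein. The best-known family member, SSI2, makes oleoyl-ACP from stearoyl-ACP in leaves.

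The arrays of the 2 systems lie on different scales. The array medians ranged from 6.71 to 6.79 in seedlings and from 3.34 to 3.54 in protoplasts, and on each protoplast array 39.8% to 41.6% of the probe sets were no more than 0.1 above its lowest value. Same-numbered protoplast arrays have a lowest value in common (2.19 in pair 1, 2.18 in pair 2) and 13500 and 11130 exactly equal values, against 20 and 8 for the seedling pairs. Of the equal protoplast values, 4453 in pair 1 and 3048 in pair 2 were more than 0.1 above the lowest value. Equal values were thus not confined to probe sets at the lowest value. Of 8 mesophyll photosynthesis markers, 5 had a listed probe set, and their summed log2 level was 25.4 and 25.5 in protoplasts with 35S:ORE1, against 26.5 and 28.1 in WT protoplasts. In seedlings the sum was 52.4 and 55.2 with estradiol and 52.8 and 55.8 with mock treatment. Among these markers LHCB4.3 was at the lowest value in all protoplasts, and PSAN was there on both arrays of pair 1. LHCB4.2 was low, at 4.22 and 3.32 with 35S:ORE1 and 4.44 and 4.32 in WT. RCA was well above the lowest value, at 8.86 and 9.09 with 35S:ORE1 and 9.39 and 9.41 in WT. So was LHCB4.1, at 7.90 and 7.75 with 35S:ORE1 and 8.15 and 8.16 in WT. Of the 5 markers 0 passed limma's test in protoplasts, where 3.77% of all tested probe sets did. The mesophyll identity is taken from the sample labels and not from these markers. Both listed guard and myrosin cell markers and both listed root hair markers lay at the lowest value on all 4 protoplast arrays, while the markers for epidermis and for vasculature and xylem had no listed probe set and were not analysed here.

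The peroxidase gene AT5G66390 was low in WT protoplasts and among the upper probe sets of both arrays with 35S:ORE1. Its log2 values were 10.62 and 9.78 in protoplasts with 35S:ORE1, against 4.05 and 2.66 in WT protoplasts. It thus lay above 94.1% and 89.8% of the probe sets with 35S:ORE1 and above 53.0% and 45.7% in WT, where it was not at the lowest value of either array. Means were 10.20 ± 0.60 with 35S:ORE1 and 3.35 ± 0.99 in WT (SD, n = 2 arrays each), a difference of 6.85 or 115-fold. The WT arrays differed from each other more than those of any other group did for this gene, yet the difference was similar within the pairs, at 6.57 in pair 1 and 7.12 in pair 2. In such bulk samples, fewer cells that express a gene and less RNA per cell cannot be told apart.

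The phosphatase gene PAP20 was at or near the lowest value in WT protoplasts. It had log2 values of 8.53 and 8.94 with 35S:ORE1, against 2.19 and 2.28 in WT. The groups were far apart, and the second WT value was 0.0986 above the lowest value of its array, just inside the 0.1 by which a value is counted as lowest. Means were 8.74 ± 0.29 with 35S:ORE1 and 2.23 ± 0.06 in WT (SD, n = 2 each), so that the difference of 6.50, or 90.7-fold, can only be read as a minimum on the deposited scale. Within pairs it was 6.34 and 6.67. With 35S:ORE1 the probe set lay above 82.2% and 84.5% of all probe sets.

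The desaturase gene AT5G16230 lay exactly at the lowest value on both WT arrays. Its values were 9.37 and 8.93 with 35S:ORE1, against 2.19 and 2.18 in WT. The probe set therefore stood above 88.2% and 84.4% of the probe sets with 35S:ORE1 and above none in WT. Means were 9.15 ± 0.31 with 35S:ORE1 and 2.18 ± 0.01 in WT (SD, n = 2 each). The difference of 6.97, or 125-fold, can again only be read as a minimum on the deposited scale. Within pairs it was 7.18 in pair 1 and 6.76 in pair 2. All 3 genes were thus higher with 35S:ORE1 in both pairs, with no overlap between groups. The choice was made on the difference of means, and so large a difference makes such agreement likely. The share of all probe sets without overlap in protoplasts was not counted, so nothing is read from this.

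**Figure D1:**
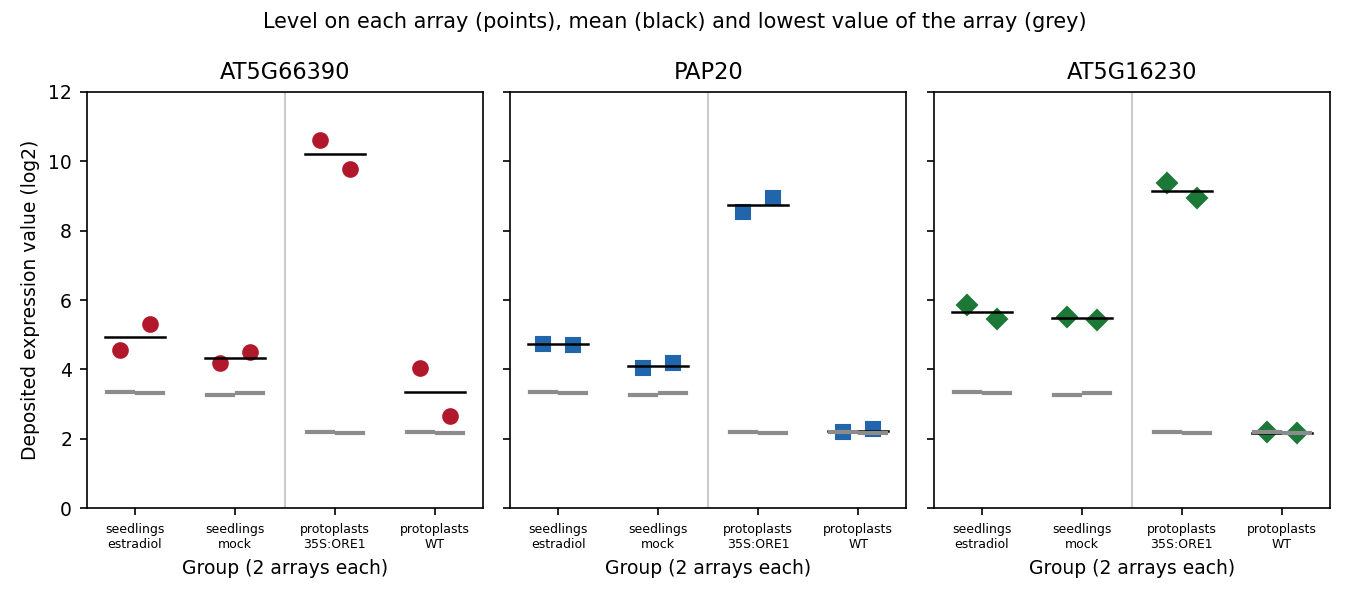
Deposited log2 expression value (y axis) of AT5G66390, PAP20 and AT5G16230 on each of the 8 arrays by group (x axis); points are arrays, with replicate 1 left of replicate 2, black lines are means of 2 arrays, and grey lines mark the lowest value of each array. PAP20 and AT5G16230 lie on the grey line in WT protoplasts and at 8.53 to 9.37 with 35S:ORE1, while AT5G66390 lies above the line in WT protoplasts; the seedling and protoplast scales are not comparable.

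Among the 17388 probe sets that reached log2 5 on at least 2 arrays, the differences of AT5G16230, AT5G66390 and PAP20 ranked 20, 22 and 24 by size. In protoplasts 3.77% of these probe sets passed limma's test in either direction, and nothing is read from this for genes chosen by the same contrast. The filter also matters for them: AT5G66390 reached log2 5 on 3 arrays, 2 of which were those with 35S:ORE1, PAP20 on those 2 alone, and AT5G16230 on 6, among them the 4 seedling arrays. AT5G66390 and PAP20 therefore entered the test only through the group in which they are high. Of single-gene probe sets, 16 genes were at or above the log2 6 used for the choice. Those just inside it were AT3G10590 (6.09) and AT3G06210 (6.04), and those just outside were AT1G29160 (5.90) and AT5G38610 (5.67).

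The size of the protoplast differences depended on scaling. After quantile normalization of all 8 arrays they were 5.13 for AT5G66390, 4.87 for PAP20 and 5.88 for AT5G16230, which moved each fold by over 1.5 times. Leaving out single arrays gave 6.15 to 7.54 for AT5G66390, with the ends of this range without WT replicate 2 and without WT replicate 1. The corresponding ranges were 6.29 to 6.71 for PAP20 and 6.75 to 7.18 for AT5G16230.

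**Figure D2:**
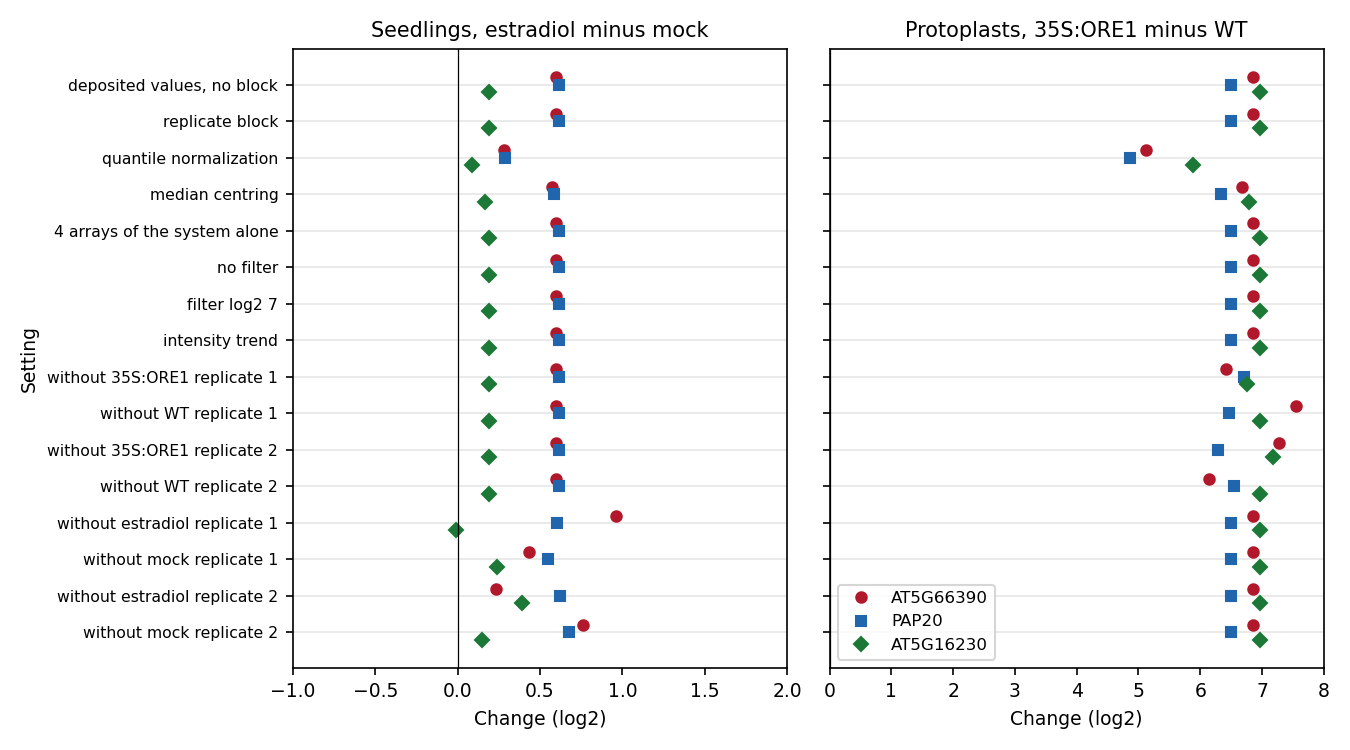
Change (log2, x axes) of the 3 genes under each setting (y axis), for seedlings with estradiol minus mock on the left and protoplasts with 35S:ORE1 minus WT on the right; each point is 1 gene under 1 setting. The protoplast changes stay between 4.87 and 7.54, with the smallest value of each gene after quantile normalization, and the seedling changes lie between -0.01 and 0.96.

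In seedlings the question is whether 2 h of estradiol in ORE1-IOE seedlings moves the same genes, and none of the 3 passed the test. Seedling levels were low: AT5G66390 lay above 16.6% and 29.4% of the probe sets with estradiol and above 7.99% and 15.3% with mock, and PAP20 above 20.3% and 18.0% with estradiol and above 5.79% and 8.51% with mock. AT5G16230 lay above 38.0% and 32.2% with estradiol and above 33.2% and 32.5% with mock. Over all tested probe sets 1 passed in seedlings, or 0.00575%.

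PAP20 had log2 values of 4.73 and 4.72 with estradiol, against 4.05 and 4.18 with mock treatment. Both estradiol arrays lay above both mock arrays, as they did for 18.6% of all tested probe sets. The change was 0.61 ± 0.16 (SE, 1.53-fold, limma adjusted p = 0.953). Its 95% interval of 0.22 to 1.01 is not adjusted for the number of probe sets. The fit pools the spread of all 4 groups, and the WT protoplast arrays lay at the lowest value. This interval may therefore be too narrow. The change was similar in both pairs, at 0.69 and 0.54, and 99.1% of the tested probe sets had a smaller change. Its size depended on scaling, since after quantile normalization it was 0.29.

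AT5G66390 had log2 values of 4.57 and 5.30 with estradiol, against 4.17 and 4.50 with mock treatment. The estradiol arrays again lay above both mock arrays, but the lower of them by little. The change was 0.60 ± 0.52 (SE, 1.51-fold, limma adjusted p = 1.00; 95% interval -0.67 to 1.87), with 0.39 in pair 1 and 0.80 in pair 2. The SE is from a fit that pools the spread of all 4 groups, that between the WT protoplast arrays included. Fitted without the protoplast arrays, its adjusted p was still 1.00. The value rests on single arrays, since it was 0.23 without estradiol replicate 2 and 0.96 without estradiol replicate 1. After quantile normalization it was 0.28.

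For AT5G16230 the values were 5.87 and 5.47 with estradiol and 5.52 and 5.43 with mock treatment. These groups overlapped. The change was 0.19 ± 0.20 (SE, limma adjusted p = 1.00; 95% interval -0.29 to 0.67), and it was -0.01 without estradiol replicate 1. The intervals of the 3 genes leave room for changes of up to 1.87, 1.01 and 0.67 in AT5G66390, PAP20 and AT5G16230. Missing the threshold therefore does not show that the genes were unaffected. For PAP20 and AT5G16230 the pooled spread includes WT protoplast arrays at the lowest value (SD 0.06 and 0.01). The intervals of these genes may thus be too narrow. Mean values were higher with estradiol for all 3 genes, which holds for 54.1% of all tested probe sets.

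**Figure D3:**
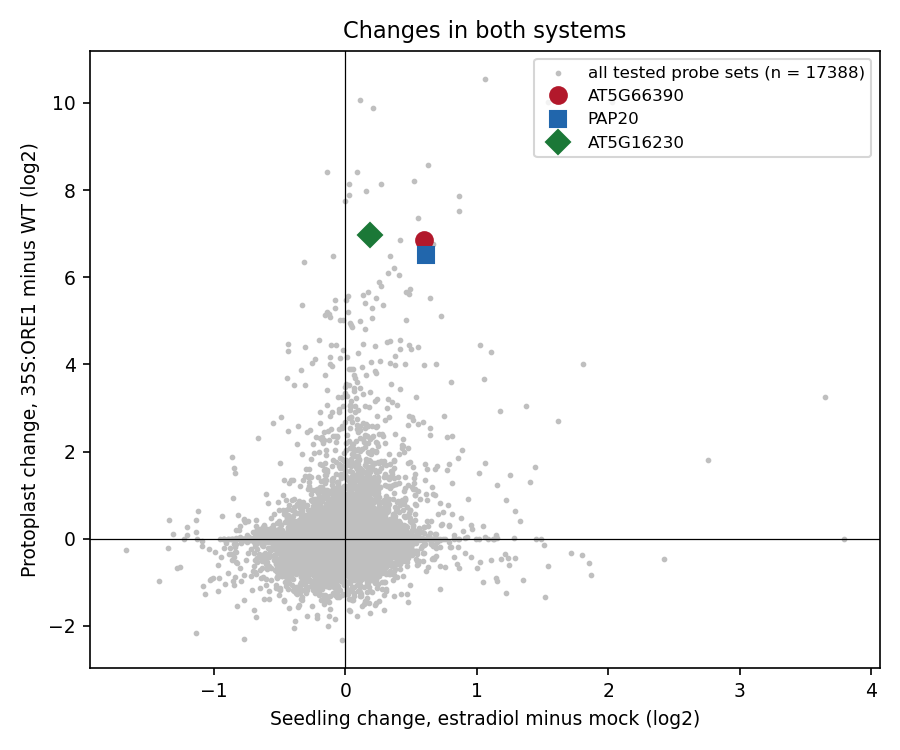
Change in seedlings (estradiol minus mock, log2, x axis) against change in protoplasts (35S:ORE1 minus WT, log2, y axis) for 17388 tested probe sets in grey, with the 3 genes as coloured symbols. The genes lie at 6.50 to 6.97 in protoplasts, which is how they were chosen, and at 0.19 to 0.61 in seedlings.

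The other genes of the 3 families, from lists of 73 class III peroxidases, 29 purple acid phosphatases and 7 acyl-ACP desaturases, were then examined. They were not chosen by their own values, so the test applies to those that lie above the lowest value. In protoplasts 0 of 34 other tested peroxidases, 0 of 2 other phosphatases and 0 of 2 other desaturases passed limma's test, against a background of 3.77%. At an unadjusted p under 0.05 the count was 1 peroxidase and none of the others, against 12.2% of all tested probe sets. Of the 34 peroxidases, 26 lay at the lowest value on all 4 protoplast arrays and 2 more had equal means, so these could not pass. Nor could the phosphatase AT1G25230, at the lowest value on all 4, or the desaturase AT3G02630, with equal values within each pair. The desaturase AT5G16240 stayed near the lowest value. For all 3 families the counts that remain are too low to differ visibly from the background.

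Of the 72 other class III peroxidases, 54 had a listed probe set and 34 reached the level for testing. In protoplasts 44 of the 54 lay at the lowest value on all 4 arrays, as did 26 of the 34 tested. Of the other 8 tested, AT1G14550 alone had a higher mean with 35S:ORE1, 5 had a lower mean and 2 had equal means. The median change of the 34 was 0.00, as was that of all tested probe sets, with a range from -1.43 to 0.43. The largest change was that of Prx37, with 7.22 and 7.56 with 35S:ORE1 against 8.86 and 8.78 in WT, so that both arrays lay lower. Its change was -1.43 ± 0.42 (SE, limma adjusted p = 0.179). A replicate block made the adjusted p 0.0365, but it was 0.901 after quantile normalization and 0.0903 after median centring. Without single arrays the change was -1.60 to -1.26.

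Other peroxidase genes were among the highest probe sets of the protoplast arrays in both groups. AT5G64120 had 13.41 and 14.40 with 35S:ORE1 and 13.73 and 14.64 in WT, PRX52 had 12.50 and 13.22 with 35S:ORE1 and 12.82 and 13.14 in WT, and AT5G39580 had 11.80 and 12.11 with 35S:ORE1 and 12.41 and 12.31 in WT. Their changes of -0.29, -0.12 and -0.40 did not pass (limma adjusted p = 1.00 each). AT1G14550 was at 7.58 and 8.07 with 35S:ORE1, against 7.43 and 7.37 in WT (0.43 ± 0.19, SE, adjusted p = 0.452), and AT3G28200 changed by -0.35 ± 0.29. AT5G15180, too low to be tested, had 3.48 and 2.18 with 35S:ORE1 and 2.24 and 2.18 in WT, so its difference rests on 1 array.

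In seedlings 0 of the 34 other peroxidases passed, and 2 had an unadjusted p under 0.05, against 4.13% of all tested probe sets. Both of these lay at the lowest value on all 4 protoplast arrays, as did 26 of the 34. The fit pools that spread, so seedling p-values of such genes may be too low. Of the 34, 12 had a higher mean with estradiol and 22 a lower one. Their median change was -0.09, against 0.02 for all tested probe sets, with a range of -0.45 to 0.69. The largest changes were those of AT5G39580 (0.69), PRX52 (-0.45), AT4G30170 (-0.43), AT5G64110 (-0.35) and AT5G06730 (0.34). For AT5G39580 the pairs went opposite ways, at -0.29 and 1.68, and likewise for AT4G30170, at -1.21 and 0.34. The value of AT5G66390, 0.60, lies within this range and below that of AT5G39580.

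Of the 28 other purple acid phosphatases, 2 had a listed probe set. AT1G13750 was expressed in protoplasts, with 8.29 and 8.30 with 35S:ORE1 against 8.73 and 8.50 in WT (-0.32 ± 0.19, SE, limma adjusted p = 0.719), and changed by -0.01 in seedlings. AT1G25230 lay at the lowest value on all 4 protoplast arrays, and in seedlings its means were 7.37 ± 0.53 with estradiol and 7.85 ± 0.30 with mock (SD, n = 2 each; -0.48 ± 0.26, SE, adjusted p = 1.00). PAP21 and PAP22, which lie close to PAP20 on the chromosome, had no listed probe set and were not analysed here.

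Of the 6 other acyl-ACP desaturases, 2 had a listed probe set. AT5G16240, a paralog that lies 2 genes from AT5G16230, had 2.31 and 2.18 with 35S:ORE1 and 2.19 and 2.18 in WT, so it stayed near the lowest value in protoplasts (0.06 ± 0.18, SE, limma adjusted p = 1.00; -0.11 after median centring). In seedlings it had 5.71 and 5.97 with estradiol and 5.72 and 6.13 with mock (-0.09 ± 0.18). AT3G02630 was expressed in both systems. In protoplasts its values were exactly equal within each pair, at 6.67 in pair 1 and 6.50 in pair 2, and its seedling change was 0.04 ± 0.13. SSI2 had no listed probe set and was not analysed here.

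**Figure D4:**
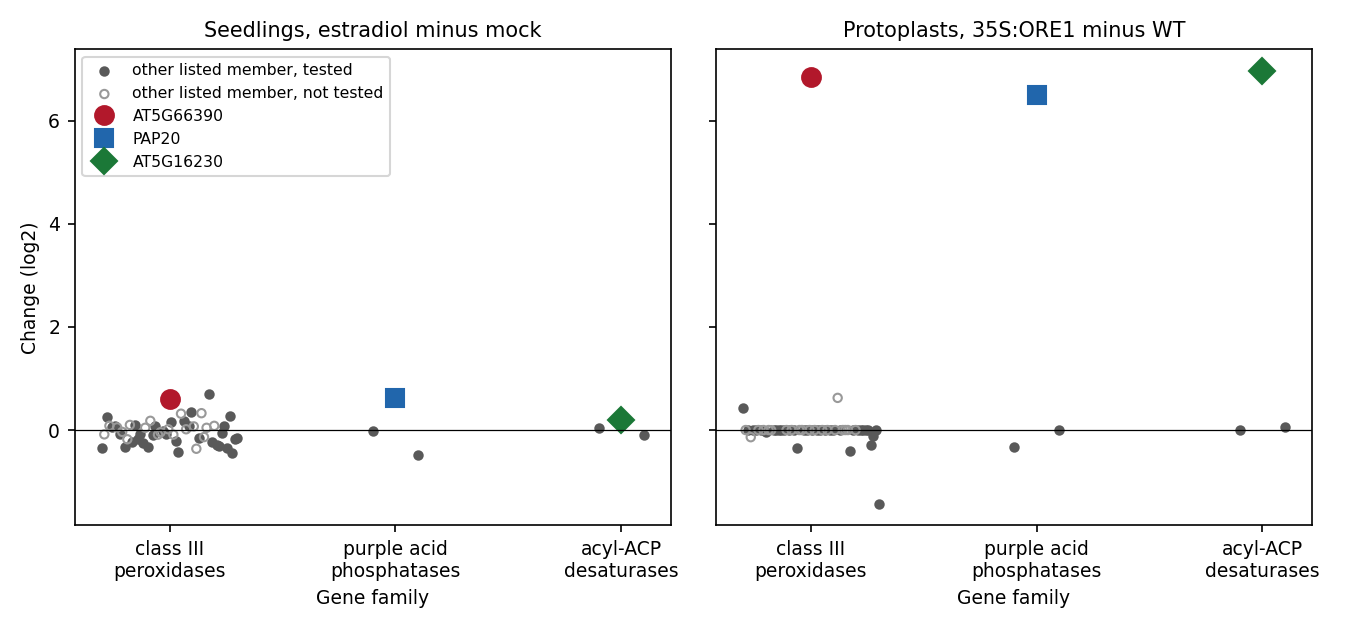
Change (log2, y axis) of the listed class III peroxidases, purple acid phosphatases and acyl-ACP desaturases (x axis) in seedlings with estradiol minus mock (left) and protoplasts with 35S:ORE1 minus WT (right); filled grey points are other tested family members, open points other members too low to be tested, and coloured symbols the 3 genes. In protoplasts the other tested members lie between -1.43 and 0.43, many of them at 0 with both groups at the lowest value.

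The pathways around the 3 enzymes are thinly covered by listed probe sets. Of 18 lignin synthesis and polymerisation genes, 1 had one, HCT, which encodes a hydroxycinnamoyl transferase of monolignol synthesis. It had 10.38 and 11.00 with 35S:ORE1 against 11.36 and 11.44 in WT, a change of -0.71 ± 0.25 (SE, limma adjusted p = 0.277), and it changed by -0.41 ± 0.25 in seedlings (adjusted p = 1.00). Of 22 genes of fatty acid synthesis and desaturation 3 were tested, all for acyl-ACP thioesterases, and 0 passed in either system, nor at an unadjusted p under 0.05. FATB changed by 0.19 ± 0.12 in protoplasts (adjusted p = 0.797), AT4G13050 by -0.02 there and by -0.09 in seedlings, and FaTA, at the lowest value on all 4 protoplast arrays, by -0.01 in seedlings. Of 16 phosphate starvation genes none had a listed probe set, so PAP20 could not be set beside them here.

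The nearest genes on the chromosome did not share the differences of log2 6 or more. Of 12 such genes, 2 on each side with a listed probe set, 9 were tested, 1 rose in protoplasts, where 3.00% of all tested probe sets did, and 0 passed in seedlings, also at an unadjusted p under 0.05. The gene that rose was AT5G16210, which lies 2 genes from AT5G16230. It had 7.71 and 7.80 with 35S:ORE1 against 7.11 and 6.99 in WT, a change of 0.71 ± 0.11 (SE, limma adjusted p = 0.0230). That call was lost after quantile normalization (0.52, adjusted p = 0.0993), after median centring (0.53, adjusted p = 0.0753), when only protoplast arrays were fitted (adjusted p = 0.118) and without any of the protoplast or mock arrays in turn (adjusted p = 0.0585 to 0.173). The other neighbours tested in protoplasts were AT3G52760 (0.48), AT5G16220 (0.39), AT3G52800 (0.38), AT5G16240 (0.06), AT5G16250 (0.04), AT5G66420 (0.00), FTSZ2-2 (0.00) and DIM1B (-0.06). AT5G66370, AT5G66430 and AT3G52830 were too low to be tested.

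The 3 genes were also compared in pattern across the 8 arrays. Their choice by a large protoplast difference makes them alike in advance. After subtraction of the mock mean in seedlings and of the WT mean in protoplasts, the root mean square difference was 0.40 on the log2 scale between PAP20 and AT5G16230, 0.52 between AT5G66390 and AT5G16230, and 0.55 between AT5G66390 and PAP20. Closer still, among 13332 other genes, were AT1G17310 to AT5G16230 (0.15), AT4G34320 to PAP20 (0.26) and ALPHA-VPE, which encodes a vacuolar processing enzyme, to AT5G66390 (0.44). ALPHA-VPE and AT4G34320 were among the 3 closest genes of each of the 3. AT1G20180 was the third for AT5G66390 (0.47) and AT3G10590 the second for PAP20 (0.28). This likeness is a description over 8 arrays whose protoplast pairs hold many equal values, and much of it is the low WT level and the high level with 35S:ORE1. For the 3 genes that part was fixed by the choice. No typical difference between other genes is given for comparison, so nothing further is read from their closeness.

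In seedlings, where these like genes were not chosen by a threshold, AT4G34320 was higher with estradiol by 0.67 (limma adjusted p = 0.953), AT1G20180 by 0.55 (adjusted p = 0.974) and ALPHA-VPE by 0.42 (adjusted p = 1.00). AT3G10590 was higher by 0.33 and AT1G17310 by 0.18. None passed, and the seedling values entered the measure of likeness.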

How the data were processed

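Transcript levels were measured on 8 Affymetrix arrays, with groups taken from the sample titles. The deposited log2 values per probe set were made by the authors, and per the submitters' processing notes GCRMA and RMA were used, without versions or the arrays each applied to. Probe sets were named through the platform's probe table and the reference gene table: 13513 have 1 gene symbol (13484 matched a locus), 503 several and 8730 are not listed. Of several probe sets of a gene, the one with the highest mean was used.

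Probe sets other than the 64 controls that reached log2 5 on at least 2 arrays (17388) entered limma (version 3.58.1, R 4.3.3), with lmFit and eBayes, two-sided tests and a threshold of 0.05 on Benjamini-Hochberg adjusted p, in 1 model of 4 group means without a block. This leaves 4 residual degrees of freedom, to which the prior added 2.25. Permutation of 2 against 2 arrays cannot give an exact two-sided p under 0.333. On simulated data for the seedling comparison (17388 probe sets), 44% of changes of log2 1 and 84% of log2 2 were recovered. The simulated noise was independent between arrays, with a spread averaged over all 4 groups. These shares may therefore not hold for the seedling arrays. A value within 0.1 of its array's lowest counts as lowest. The number of arrays limits the precision.

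The genes and lists were chosen with earlier results of these data known. Named besides the 3 genes were all listed phosphatases and desaturases, peroxidases and pathway genes with the largest changes, the nearest chromosomal neighbours and the 3 genes most like each in pattern. AT5G15180 and PRXR1 were singled out after their values were seen, and PAP21, PAP22 and SSI2 are named as unmeasured family members. Alternatives were a replicate block, quantile normalization, median centring, the arrays of 1 system, other filters, an intensity trend and leaving out each array.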

Additional observations from a re-analysis of the deposited data

How the results depend on the processing

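Values near the lowest value of a protoplast array carry no measurable change. The seedling changes of the 3 genes missed the threshold under every alternative run (adjusted p 0.217 to 1.00), and a replicate block gave adjusted p of 0.217 for PAP20, 0.265 for AT5G66390 and 0.549 for AT5G16230. Deviations of same-numbered arrays had a correlation of 0.656 (seedlings) and 0.787 (protoplasts), from 2 pairs per system, but the labels do not say what a number shares. The block moved the count of protoplast calls from 656 to 1343 and that of seedling calls from 1 to 0.

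Protoplast calls numbered 374 after quantile normalization and 145 with the 4 protoplast arrays alone, and 376 to 528 without single arrays, with 376 without WT replicate 2 and 407 without WT replicate 1. Seedling calls numbered 3 after quantile normalization and 0 with the seedling arrays alone, with an intensity trend and without any 1 array. Quantile normalization gave protoplast changes of 5.13 for AT5G66390, 4.87 for PAP20 and 5.88 for AT5G16230. The seedling changes of these genes became 0.28, 0.29 and 0.09. Median centring turned 2 small protoplast changes, to -0.11 for AT5G16240 and -0.13 for AT5G16250. The cause of these shifts was not tested.

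Leaving out single arrays turned changes that had not passed. In seedlings the ranges were -0.0101 to 0.39 for AT5G16230, -1.08 to 0.21 for AT4G30170, -0.22 to 0.19 for AT1G13750, -0.29 to 0.12 for AT5G16240, -0.0545 to 0.14 for AT3G02630, -0.13 to 0.12 for FaTA, -0.41 to 0.15 for AT5G66420, -0.48 to 0.16 for FTSZ2-2, -0.24 to 0.0544 for AT3G52800 and -0.28 to 0.15 for AT5G16250. In protoplasts they were -0.80 to 0.10 for AT3G28200, -0.78 to 0.21 for AT5G64120, -0.0076 to 0.0040 for AT1G25230, -0.0058 to 0.13 for AT5G16240, -0.0874 to 0.0529 for AT4G13050 and -0.53 to 0.42 for DIM1B. Over the 40 changes of other genes, 554 of 590 values under an alternative kept direction and side of the threshold. A change of 0.00 was always counted as kept in direction, as for AT3G02630 in protoplasts (-0.0842 to 0.0842 without single arrays).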

Other observations

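Class III peroxidase genes stood at different places on the arrays of the 2 systems by rank within each array. PRX52 lay above 98.8% and 99.2% of the probe sets in protoplasts with 35S:ORE1 and above 99.1% in both WT arrays, but above 33.1% and 35.3% in seedlings with estradiol and above 42.6% and 38.6% with mock treatment. PRXR1 went the other way, above 47.5% and 45.3% with 35S:ORE1 and above 48.4% and 46.1% in WT, against 99.0% and 99.3% with estradiol and 99.1% and 99.4% with mock. Its protoplast values were exactly equal within each pair, at 2.96 in pair 1 and 2.71 in pair 2. These are not far above the lowest values of 2.19 and 2.18. Of the 54 listed peroxidases other than AT5G66390, the same 6 lay above 50% of the probe sets on both arrays with 35S:ORE1 and on both WT arrays, while 10 did so on both estradiol arrays and 9 on both mock arrays. Tissue, age and processing differ between the systems, and these differences cannot be told apart.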
